A study of Mus musculus with 2 samples.

Results

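Conventional type 1 dendritic cells (cDC1) were described in 2 single-cell RNA libraries from a mouse melanoma model. The cells were selected on measured values. A cell counted as cDC1 when it held at least 1 unique molecule (UMI) of both class II genes H2-Aa and H2-Eb1 and of at least 2 of the 3 markers Xcr1, Clec9a and Flt3, one of them Xcr1 or Clec9a. It also had to hold no UMI of Fscn1 (mature dendritic cells), Cd79a (B cells) or C1qa (macrophages). The rule found 270 of 17390 cells, of which 242 came from the untreated library and 28 from the treated library.

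cDC1 are the dendritic cells that present material taken up from dying cells to CD8 T cells, a process called cross-presentation. They depend on the transcription factors Irf8, Batf3 and Id2, read damage through Clec9a, a receptor for actin exposed on dead cells, and are drawn to T and NK cells through the chemokine receptor Xcr1. In tumours they are known as a source of Cxcl9, Cxcl10 and interleukin 12, which attract and sustain T cells.

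The tumour model, named NILER in the labels, derives from the mouse melanoma line NIL, which carries an Nras Q61R mutation, and was given many mutations by ultraviolet irradiation, so both groups share that line and that irradiation. One day 5 library had no treatment. The other, called the combination library here, had trametinib, which blocks the kinases MEK1 and MEK2, plus the RAF inhibitor BGB-283. There was 1 droplet library per group, made from the 3' end of transcripts and labelled as T cells, so no spread between animals could be estimated, no test was made, and treatment cannot be told apart from any other difference between the libraries. The labels describe neither how the cells were sorted nor the animals pooled, and both can set the share of a cell type. The cDC1 cells held a median of 20006 UMIs and 3675 genes in the untreated and 20382.5 UMIs and 3844 genes in the combination library, with 4927976 and 610199 UMIs in all. All deposited cells together held a median of 6155 and 5987.5 UMIs. The libraries shared 35 cell barcodes, of which 0 belonged to cDC1. Levels are counts per 1000000 UMIs of the class (CPM), and all intervals are exact 95% intervals that cover counting error only.

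The label was checked against genes that the rule did not read. Naaa, an acid amidase long used as a cDC1 marker, had 1391 CPM in untreated and 1200 CPM in combination cells. Itgae, the CD103 integrin chain, stood at 316 and 231 CPM, and Cadm1, an adhesion molecule, at 217 and 193 CPM. Wdfy4, which is needed for cross-presentation, stood at 515 and 621 CPM. These 4 were named from 29 measured cDC1 identity genes outside the rule. The 29 ranged from 6.90 to 25573 CPM in untreated and from 0 to 24774 CPM in combination cells, so some were low or absent. T cells (at least 2 UMIs of Cd3d, Cd3e, Cd3g and Trac together and none of class II), some of which are known to carry Itgae, held at most 14.3 CPM of each of the 4 named genes in either library. Naaa was found in 92.6% of untreated and 92.9% of combination cells. Markers of other cells were also present. The 24 genes of mature dendritic cells summed to 1661 and 1434 CPM, and the 10 plasmacytoid markers to 695 and 790 CPM. The 8 monocyte and neutrophil markers summed to 786 and 403 CPM, of which Plac8 gave 693 and 279 CPM, a gene that T cells here held at 414 and 494 CPM. The 12 T cell markers summed to 554 and 377 CPM, the 12 macrophage markers to 399 and 593 CPM, the 7 B cell markers to 122 and 116 CPM, and the 10 stromal and melanoma markers to 2.44 and 4.92 CPM. Of the macrophage markers, Mertk was at 0 in both libraries and C1qb was at 5.28 and 8.19 CPM, while Lyz2 alone gave 240 and 438 CPM. UMIs of those 4 T cell genes, called T cell UMIs here, reached 2 or more in 42 of 242 untreated cells (17.4%, 12.8 to 22.7) and 5 of 28 combination cells (17.9%, 6.06 to 36.9), and whether these are pairs of cells in 1 droplet or free RNA was not tested.

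**Figure D1:**
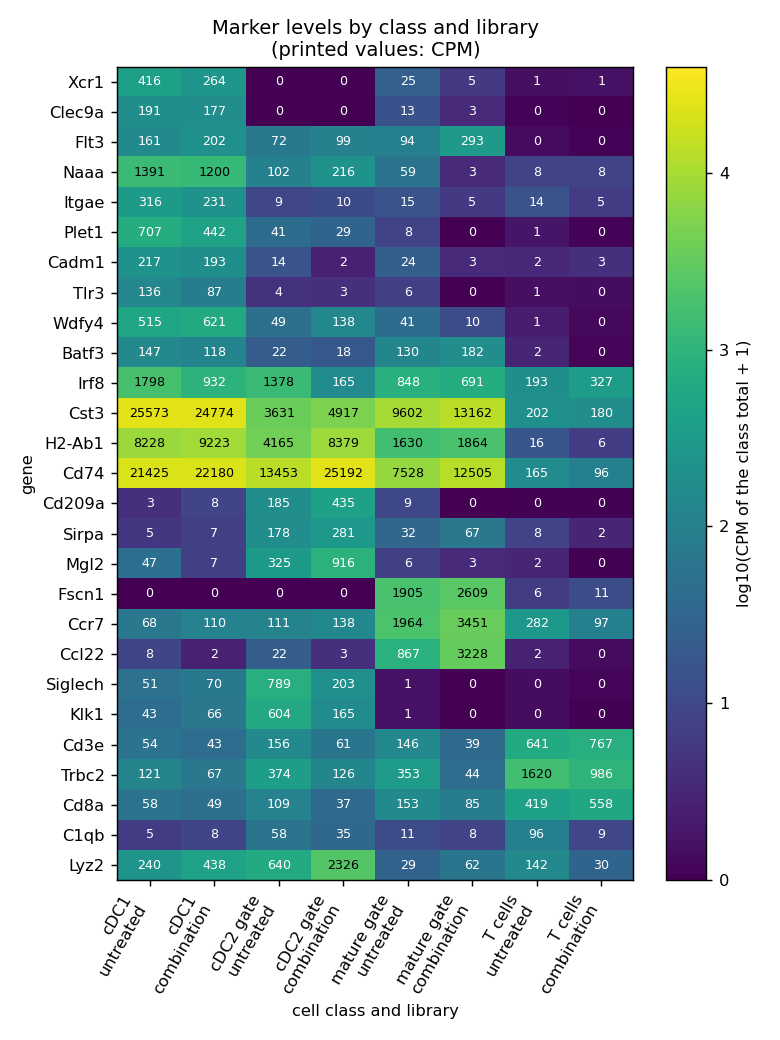
Heat map of the levels of cDC1, cDC2, mature dendritic cell, plasmacytoid, T cell and macrophage markers (rows) in 4 cell classes of each library (columns); colour is log10 of CPM plus 1 and the printed numbers are CPM. Naaa, Itgae, Plet1, Cadm1, Tlr3 and Wdfy4 are highest in both cDC1 columns, and Siglech and Klk1 are not at 0 there.

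A small group of cells inside the rule went against the label. Of the untreated cells 17 (7.02%, 4.15 to 11.01), and of the combination cells 2 (7.14%, 0.877 to 23.5), carried 27 to 103 and 50 to 99 UMIs of the plasmacytoid dendritic cell genes Siglech, Klk1, Cox6a2 and Ccr9 together. The other cells held 0 to 4 and 0 to 2 such UMIs, so that no cell lay between. The 17 untreated cells held Clec9a and Flt3 in 17 of 17 cells, but Xcr1 in 1 of 17, and both combination cells also lacked Xcr1. Cst3 stood at 1066 CPM in the 17 cells and 26423 CPM in the other 225, and Bst2, a marker of plasmacytoid dendritic cells in mice, at 4197 and 192 CPM. Tcf4, their lead transcription factor, stood at 1478 and 29.6 CPM, while Naaa stood at 12.1 and 1438 CPM. Batf3 had no UMI in these 17 cells. They were also shallower, with a median of 9053 against 20748 UMIs. They are called plasmacytoid-marker cells, and counts are given with and without them.

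**Figure D2:**
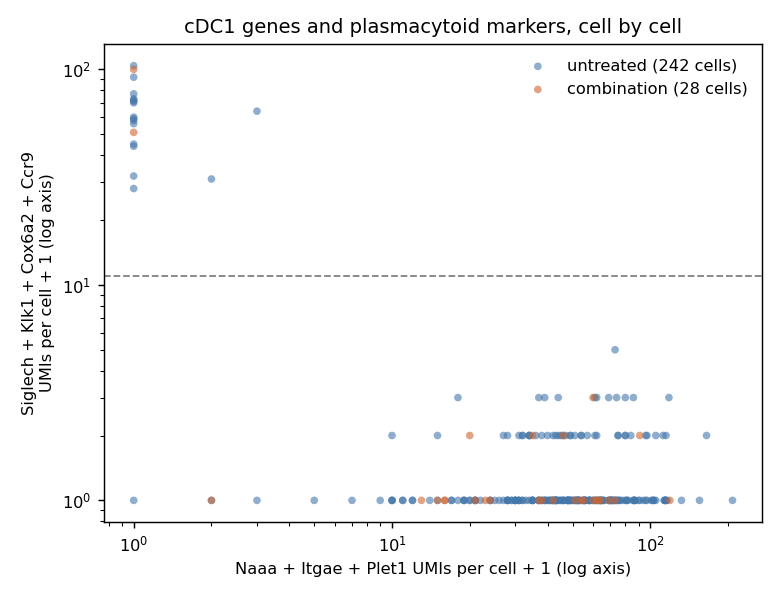
Each point is 1 cell chosen by the rule; the horizontal axis gives its UMIs of 3 cDC1 genes that the rule did not use (Naaa, Itgae and Plet1, plus 1, log axis) and the vertical axis its UMIs of 4 plasmacytoid markers (plus 1, log axis), with a dashed line at 10 UMIs. The 17 untreated and 2 combination cells above the line hold 0 to 2 UMIs of the cDC1 genes. The cells below it hold a median of 48.0 (0 to 207) and 43.0 (1 to 118), so a few of them are also low.

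Most cells held all 3 markers at full depth. All 3 were present in 191 untreated and 21 combination cells, and exactly 2 in 51 and 7. With cells thinned to 2000 UMIs, the rule found only 75 untreated and 11 combination cells. Just outside it, 31 untreated and 4 combination cells met every other condition with only Xcr1 or only Clec9a. The condition on C1qa acted on the untreated library alone: it left out 50 untreated and 0 combination cells that met all else. C1qa is also found in T cells here, in 7.17% of untreated (6.54 to 7.84) and 2.11% of combination T cells (1.77 to 2.48). Fscn1 left out 14 and 3 cells, and Cd79a 1 and 0.

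cDC1 made up 2.60% of the untreated (242 of 9312, 2.29 to 2.94) and 0.347% of the combination library (28 of 8078, 0.230 to 0.501). Without plasmacytoid-marker cells the shares were 2.42% (2.11 to 2.75) and 0.322% (0.210 to 0.471), and with C1qa left out of the rule 3.14% (2.79 to 3.51) and 0.347%. Among cells without any T cell UMI, cDC1 made up 21.5% (156 of 724) and 3.23% (20 of 620). The share was lower in the combination library under each of these denominators, and, with 1 library per group and a sort that is not described, it is a property of these 2 libraries.

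The cells of 2 other dendritic gates differed less in number than cDC1. A cDC2 gate (class II, at least 2 of Cd209a, Sirpa, Clec10a and Mgl2, no Xcr1 or Clec9a) held 112 untreated and 52 combination cells, or 45 and 45 once plasmacytoid-marker cells were left out, which is 0.483% (0.353 to 0.646) and 0.557% (0.407 to 0.745) of all cells. A gate for mature dendritic cells (class II, Fscn1 and Ccr7) held 86 and 40 cells, 0.924% (0.739 to 1.14) and 0.495% (0.354 to 0.674). With cDC1, the 3 gates held 440 untreated and 120 combination cells, or 356 and 111 without plasmacytoid-marker cells. Plasmacytoid-marker cells were thus also fewer in the combination library. Of the cells of these 3 gates without plasmacytoid-marker cells, cDC1 made up 225 of 356 untreated (63.2%, 58.0 to 68.2) and 26 of 111 combination cells (23.4%, 15.9 to 32.4). These shares compare cells within a library and do not depend on the number of T cells captured. The rule was set on measured values, so they stand as a description.

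Set beside the cDC2 gate, the cDC1 cells of both libraries were most raised in Itgae (316 against 8.72 CPM untreated, 231 against 9.59 CPM in the combination library) and Plet1, a surface protein (707 against 40.7 and 442 against 28.8 CPM). Rab7b, a small GTPase of late endosomes, stood at 251 against 21.1 and 370 against 25.6 CPM. Ppt1, a lysosomal thioesterase, stood at 884 against 86.5 and 559 against 67.2 CPM. The list of the 10 most raised genes also held Slc25a20, Trim35, Ifi205, Cd24a, Naaa and Cst3. The genes lowest in cDC1 against that gate were led by the calcium-binding protein S100a4 (49.9 against 1010 and 102 against 3001 CPM) and Zeb2, a transcription factor of cDC2 and plasmacytoid cells (14.8 against 242 and 6.56 against 248 CPM). Cybb, the NADPH oxidase subunit, stood at 33.9 against 539 and 47.5 against 358 CPM. Since 45 of 112 untreated and 45 of 52 combination cells of the cDC2 gate were free of plasmacytoid markers, these values describe a mixed class.

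Against mature dendritic cells the most raised genes were Plet1 (7.71 CPM in untreated mature cells and 0 UMIs in combination mature cells), Rab7b, Naaa and Itgae again, with Alox5ap, which serves leukotriene synthesis, at 684 against 40.6 and 726 against 15.4 CPM. Ckb, the brain-type creatine kinase, stood at 807 against 56.1 and 1047 against 2.57 CPM. Genes of the mature state were low: Ccl22, a chemokine for regulatory T cells, stood at 8.12 against 867 and 1.64 against 3228 CPM, and Socs2, a brake on cytokine signals, at 2.44 against 325 and 1.64 against 722 CPM. Fabp5, a fatty acid carrier, stood at 17.7 against 1446 CPM in the untreated library and had no UMI in combination cDC1 cells. In these comparisons the order of the classes was the same in both libraries, which is how the genes were picked.

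The cDC1 cells were not uniform. Cells with at least 2 UMIs of the division genes Mki67, Top2a, Ccnb1, Cdk1 and Birc5 made up 31.8% of untreated (77 of 242, 26.0 to 38.1) and 21.4% of combination cDC1 (6 of 28, 8.30 to 41.0), intervals that overlap. With every cell thinned to 2000 UMIs the shares were 16.1% (11.7 to 21.4) and 14.3% (4.03 to 32.7), against 4.80% and 3.45% of T cells. The dividing cells were deeper, with a median of 27346 and 33607 UMIs against 18187 and 16702 in the rest. Naaa stood at 1487 CPM in dividing and 1323 CPM in other untreated cells, and Itgae at 306 and 322 CPM. In the combination library, with only 6 dividing cells, Naaa stood at 1178 and 1210 CPM and Itgae at 148 and 270 CPM. The G2 and M phase list had 0 of its 7 tested genes past 1.5-fold between libraries, beside 13.9% higher and 5.53% lower of all genes.

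Cd8a, the CD8 alpha chain that marks lymphoid-tissue cDC1 in mice, was found in 38.8% of untreated (32.7 to 45.3) and 39.3% of combination cells (21.5 to 59.4). T cells held Cd8a in 55.9% and 72.2% of cells, and the part of T cell RNA in the cDC1 value was not tested. Among cDC1 cells without a T cell UMI, 47 of 156 untreated and 6 of 20 combination cells held Cd8a. Cd8b1, the CD8 beta chain, was found in 12 and 3 of them. The UMIs were closer, with 85 of Cd8a and 68 of Cd8b1 in these untreated cells and 8 and 7 in the combination cells. At 2000 UMIs per cell, untreated cDC1 held Cd8a in 7.02% and Cd8b1 in 7.85% of cells. Cd8b1 was also held by 10 of 17 untreated plasmacytoid-marker cells, at 672 CPM. Klrk1, the activating receptor NKG2D, was found in 70.7% (64.5 to 76.3) and 82.1% (63.1 to 93.9) of cDC1 cells, against 17.7% and 37.7% of T cells. Thinned to 2000 UMIs, Klrk1 was found in 25.2% (19.9 to 31.2) and 17.9% (6.06 to 36.9) of cDC1 and 10.4% and 18.6% of T cells. At equal depth the share was higher in cDC1 than in T cells of the untreated library. The combination share rests on 5 of 28 cells, and its interval covers both the T cell share and the untreated cDC1 share.

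Cxcl9, the interferon-induced chemokine for CXCR3-bearing T cells, was carried by a minority of cells. It was found in 65 of 242 untreated (26.9%, 21.4 to 32.9) and 6 of 28 combination cells (21.4%, 8.30 to 41.0), against 0.861% and 0.353% of T cells. The untreated Cxcl9 cells held 535 CPM of it and the combination Cxcl9 cells 137 CPM. Other genes stood apart in the untreated Cxcl9 cells: Serpina3g, an interferon-induced protease inhibitor, was at 561 CPM against 79.4 CPM in the cells without Cxcl9, Cxcl10 at 131 against 2.39 CPM, and Cd40, the receptor for T cell help, at 55.2 against 11.3 CPM. Il12b, the p40 chain of interleukin 12, was found in 16 untreated and 6 combination cells, of which 6 and 2 also held Cxcl9 and 7 and 4 also held Ccr7. With 111 and 8 UMIs in all, Il12b was too rare for a comparison between libraries.

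Between the libraries, 2624 genes had at least 30 UMIs in cDC1 cells and a mean of at least 50 CPM. Of these, 366 (13.9%) were at least 1.5-fold higher in the combination library and 145 (5.53%) at least 1.5-fold lower. Without plasmacytoid-marker cells the counts were 361 and 147 of 2610, and without cells with 2 or more T cell UMIs 349 and 139 of 2589. The median of all tested genes was 0.10 above 0 on the log2 scale, and with that median set to 0 the counts became 255 and 182 of 2545, so that the excess of higher over lower calls depends on the scaling. The 28 combination cells limit every value below, and where 1 cell gave most of a gene's UMIs its part is given.

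**Figure D3:**
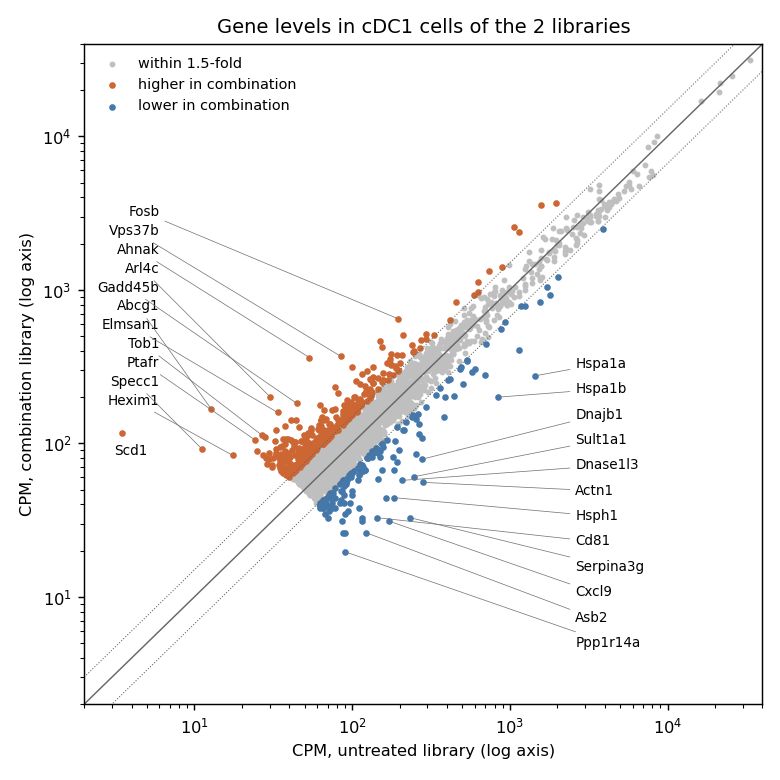
Level of each of the 2624 tested genes in untreated (horizontal) and combination cDC1 cells (vertical), in CPM on log axes; dotted lines mark 1.5-fold. Scd1 and Abcg1 lie farthest above the diagonal, and the heat shock genes Hspa1a and Hspa1b lie below it at high levels.

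Scd1 and Abcg1 led the higher genes. Scd1, the desaturase that makes monounsaturated fatty acids, had 17 UMIs in 242 untreated cells (3.45 CPM, 2.01 to 5.52) and 71 UMIs in 28 combination cells (116 CPM, 90.9 to 147), a ratio of 33.7 (19.7 to 61.1). It was found in 5.79% of untreated (3.20 to 9.52) and 85.7% of combination cells (67.3 to 96.0), or in 1.24% and 21.4% of cells thinned to 2000 UMIs. After thinning the intervals were 0.256 to 3.58 and 8.30 to 41.0, and they cover counting error in 1 library per group only. No single combination cell gave more than 8.45% of the Scd1 UMIs. Scd1 was picked for its ratio in these same cells, so its shares are a description. Its level in T cells was 0.584 and 0.585 CPM, in cDC2-gate cells 0 and 7.99 CPM and in mature cells 5.61 and 38.5 CPM. Abcg1, a cholesterol exporter, stood at 12.8 CPM (9.82 to 16.4) and 167 CPM (136 to 203), a ratio of 13.1 (9.46 to 18.2), and was found in 19.8% and 85.7% of cells. Its levels were 31.4 and 88.5 CPM in T cells, 22.5 and 165 in cDC2-gate cells and 53.3 and 306 in mature cells. Abcg1 was thus higher in the combination library in all 3. In the cDC2 gate, 45 of 112 untreated but 45 of 52 combination cells were free of plasmacytoid markers. Scd1 was near the floor in T cells (11 of 6275 and 15 of 6508 cells), so no difference could be read there. Scd2, another desaturase, stood at 24.8 and 88.5 CPM (ratio 3.57, 2.54 to 4.96).

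Srebf2, a transcription factor that drives cholesterol synthesis, stood at 127 and 141 CPM. Hmgcs1, an early enzyme of the pathway, stood at 49.3 and 19.7 CPM, under the minimum for the comparison. Of 15 sterol and lipid genes, 5 were tested. Scd1, Abcg1 and Scd2 were at least 1.5-fold higher and 0 lower, beside 13.9% and 5.53% of all genes. The median of the tested members was 1.84 on the log2 scale, and it was -0.12 over the 13 members with at least 10 UMIs.

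**Figure D4:**
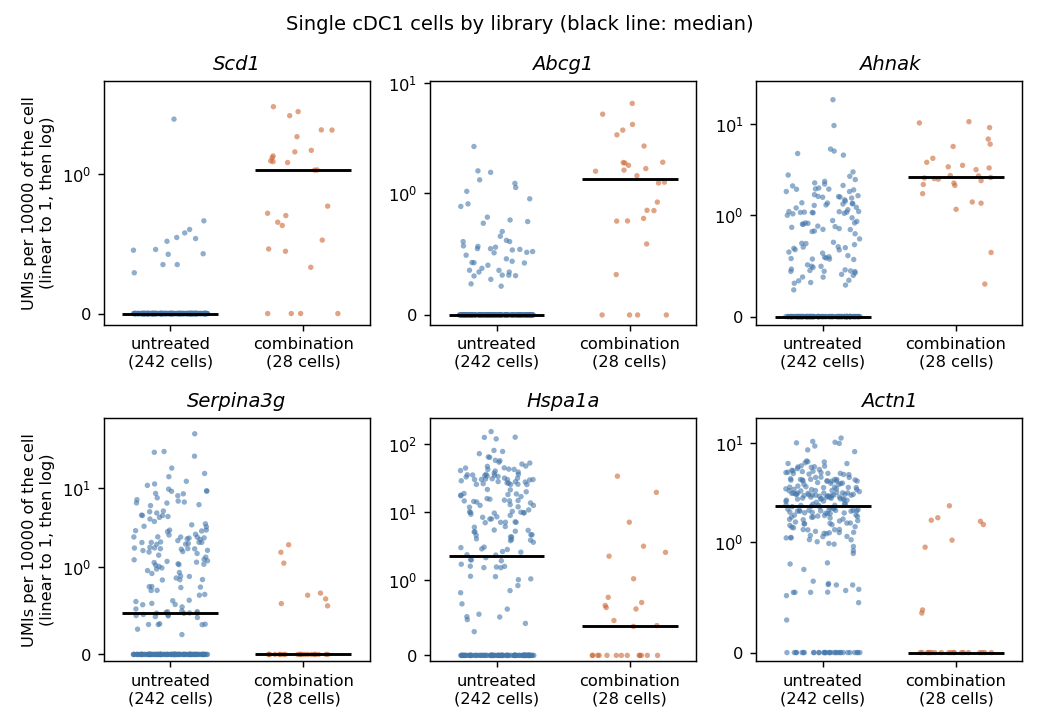
UMIs per 10000 UMIs in single cDC1 cells (points) of the untreated (242) and combination library (28) for 6 genes; the axis is linear up to 1 and logarithmic above, and black lines are medians. Most combination cells lie above 0 for Scd1, Abcg1 and Ahnak, and most lie at 0 for Serpina3g and Actn1.

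The rest of the 12 highest genes had mixed roles. Ahnak, a giant scaffold protein under the plasma membrane, stood at 53.6 and 362 CPM (ratio 6.76, 5.63 to 8.11) and was found in 46.3% and 100% of cells. It was also higher in combination T cells (95.5 and 349 CPM). Arl4c, a small GTPase, stood at 30.03 and 202 CPM, while in T cells it stood at 156 and 134 CPM. Specc1, a cytoskeletal protein, stood at 11.2 and 91.8 CPM, and Vps37b, of the endosomal sorting complex, at 84.8 and 369 CPM. Elmsan1, a subunit of a histone deacetylase complex, stood at 33.7 and 159 CPM, Hexim1, an inhibitor of transcription elongation, at 17.5 and 83.6 CPM, and Gadd45b, a stress-induced signalling adaptor, at 44.6 and 182 CPM. Ptafr, the receptor for platelet-activating factor, stood at 24.4 and 105 CPM, and in T cells at 1.39 and 1.15 CPM. Tob1, an antiproliferative protein, stood at 26.8 and 113 CPM. Each of these 12 genes stayed at least 1.5-fold higher under all alternatives that gave a fold, the smallest log2 ratio being 1.29.

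Immediate early genes, which cells switch on within minutes of a stimulus, went both ways. Fosb, an AP-1 subunit, stood at 194 and 651 CPM (ratio 3.35, 2.97 to 3.77) and Fosl2, another, at 47.7 and 103 CPM. Nr4a3, an orphan nuclear receptor, stood at 149 and 467 CPM (ratio 3.13, 2.72 to 3.60). Btg2, an antiproliferative gene, went the other way with 1148 and 403 CPM (2.85-fold lower, 2.51 to 3.25), and Jun stood at 341 and 206 CPM, of which 61.9% in the combination library came from 1 cell and which stayed past 1.5-fold in 7 of 13 alternatives. Of 15 tested genes of this list, 3 were higher and 3 lower, beside 13.9% and 5.53% of all genes (median log2 ratio -0.27, all genes 0.10). Rel and Tnfaip3, a subunit and a feedback inhibitor of NF-kB, stood at 210 and 510 CPM and at 34.7 and 95.1 CPM. NF-kB genes had 3 of 7 tested members higher and 0 lower (median 0.42), beside 13.9% and 5.53% of all genes.

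Heat shock genes were lower in the combination library. Of 10 tested members, 7 were at least 1.5-fold lower and 0 higher, beside 5.53% and 13.9% of all genes, and the median log2 ratio was -0.85. Hspa1a, an inducible HSP70 chaperone, had 7121 UMIs untreated (1445 CPM, 1412 to 1479) and 168 in the combination library (275 CPM, 235 to 320), 5.25-fold lower (4.504 to 6.153). It was found in 60.3% and 53.6% of cells, and 54.2% of its combination UMIs came from 1 cell. Hspa1b, a near-identical copy whose reads cannot be fully told apart from those of Hspa1a, stood at 843 and 200 CPM. Hsph1, a nucleotide exchange factor of HSP70, stood at 185 and 44.2 CPM (4.19-fold lower, 2.862 to 6.396), and Dnajb1, an HSP40 partner, at 276 and 78.7 CPM (3.50-fold lower, 2.63 to 4.77). Hspe1, the mitochondrial chaperonin 10, stood at 574 and 293 CPM, Hsp90ab1 at 2032 and 1219 CPM and Hspa8, the constitutive HSP70, at 3904 and 2493 CPM. Dnaja1, an HSP40, stood at 411 and 470 CPM, and Hsp90aa1 at 1017 and 814 CPM. Without dividing cells Hspa1a stood at -1.47 on the log2 scale, against -2.39 with them. In T cells Hspa1a was also lower (233 and 56.6 CPM), while Hsph1 was not (51.4 and 113 CPM).

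Since these genes are known to share binding sites for heat shock factor 1 in their promoters, the bases before their start sites were searched for the 8-letter core GAANNTTC, which reads the same on both strands. The 250 bases before each start were taken from RefSeq promoters (mouse GRCm38.p6). Of 9 matched genes of the list, 6 held the core before at least 1 start, against 7.73% of 27025 gene symbols. They were Hspa1a, Hspa1b, Dnaja1, Hspe1, Hspd1 and Hspb1, and no match was found in the windows of Hsph1, Dnajb1 and Bag3. Hspe1 and Hspd1 lie head to head with overlapping windows, and their match is the same 8 bases. Hspa1a and Hspa1b are near-identical copies, so the 6 genes are not 6 separate matches. Such sites are known in these genes, so a share above 7.73% was likely beforehand. The core was therefore present before genes that were lower (Hspa1a, Hspe1) and before Dnaja1, which was within 1.5-fold. The bases 150 to 51 before the start of 4 members, are given 5′ to 3′ on the strand of the gene, with the core in capitals. They are printed to show the near-identity of the Hspa1a and Hspa1b promoters and the place of the core. Hspa1a lies at chr17:34972207-34972306 (minus strand), Hspa1b at chr17:34959289-34959388 (minus), Hspe1 at chr1:55087998-55088097 (plus) and Dnaja1 at chr4:40722318-40722417 (plus).
Hspa1a: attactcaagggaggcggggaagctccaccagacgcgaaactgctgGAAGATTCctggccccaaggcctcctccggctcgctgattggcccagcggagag
Hspa1b: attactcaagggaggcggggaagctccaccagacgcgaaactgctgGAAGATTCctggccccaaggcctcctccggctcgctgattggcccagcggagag
Hspe1: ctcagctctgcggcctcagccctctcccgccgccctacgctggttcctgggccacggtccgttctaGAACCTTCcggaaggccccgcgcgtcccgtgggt
Dnaja1: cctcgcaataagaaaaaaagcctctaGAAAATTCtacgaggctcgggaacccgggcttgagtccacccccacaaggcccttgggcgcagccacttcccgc
The core begins 104 bases before the start in Hspa1a and Hspa1b, 84 in Hspe1 and 124 in Dnaja1. Over the 250 bases, Hspa1a and Hspa1b had 247 in common (98.8%), and the other pairs 26.4% to 28.4%. A match is a run of letters and shows no binding.

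Other genes among the 12 lowest were spread over several roles. Serpina3g had 1151 UMIs untreated (234 CPM, 220 to 248) and 20 in the combination library (32.8 CPM, 20.02 to 50.62), 7.13-fold lower (4.59 to 11.7). It was found in 56.2% and 28.6% of cells and was also lower in combination T cells (128 and 69.8 CPM) and cDC2-gate cells (112 and 19.2 CPM). Actn1, an actin cross-linker, stood at 280 and 55.7 CPM (5.02-fold lower, 3.58 to 7.28). It was found in 87.2% (82.3 to 91.1) and 32.1% (15.9 to 52.4) of cells. In T cells (135 and 109 CPM) and mature cells (406 and 514 CPM) Actn1 lay within 1.5-fold. Cxcl9 stood at 171 and 31.1 CPM (5.50-fold lower, 3.50 to 9.18), with 844 and 19 UMIs. Sult1a1, a sulfotransferase, stood at 247 and 60.6 CPM and at no more than 9.59 CPM in the other 3 classes. Asb2, a ubiquitin ligase subunit that targets filamins, stood at 122 and 26.2 CPM, and Cd81, a tetraspanin, at 144 and 32.8 CPM. Ppp1r14a, an inhibitor of myosin phosphatase, stood at 90.1 and 19.7 CPM, and Dnase1l3, a secreted DNase of dendritic cells, at 207 and 57.4 CPM, with 51.4% of its combination UMIs from 1 cell. The 12 lowest genes stayed at least 1.5-fold lower under all alternatives that gave a fold, the smallest difference being 1.30 on the log2 scale.

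cDC1 identity genes outside the rule mostly lay within 1.5-fold, with a lower subset. Of 25 tested members 1 was higher and 8 were lower (median log2 ratio -0.21), beside 13.9% and 5.53% of all genes. The higher one was Ifi205 (417 and 633 CPM), an interferon-induced DNA sensor, which stayed past 1.5-fold in 5 of 13 alternatives. Irf8, the lineage factor, stood at 1798 and 932 CPM (1.93-fold lower, 1.77 to 2.10) and was found in 99.2% and 92.9% of cells. In T cells it stood at 193 and 327 CPM. In cDC2-gate cells it stood at 1378 and 165 CPM, where 45 of 112 untreated but 45 of 52 combination cells were free of plasmacytoid markers, and marked cells are high in Irf8 (2731 CPM in the untreated ones inside the cDC1 rule). Its log2 ratio in cDC1 ranged from -1.07 to -0.75 over the alternatives. Qpct, a glutaminyl cyclase, stood at 111 and 37.7 CPM, Cd36, a scavenger receptor, at 96.4 and 41.0 CPM, and Itgax, the CD11c integrin chain, at 99.6 and 49.2 CPM. Plet1 stood at 707 and 442 CPM, Ppt1 at 884 and 559 CPM and Btla, an inhibitory receptor, at 165 and 105 CPM. Of 13 alternatives Ppt1 stayed past the limit in 9 and Btla in 6, with a log2 ratio for Btla of -0.24 in cells without T cell UMIs. Tlr3, the receptor for double-stranded RNA that marks cDC1, stood at 136 and 86.9 CPM, just past the limit, and stayed past it in 7 of 13. Batf3 stood at 147 and 118 CPM, Id2 at 713 and 682 CPM, Cadm1 at 217 and 193 CPM and Cst3 at 25573 and 24774 CPM, all within 1.5-fold. Zbtb46, which marks conventional dendritic cells, had only 141 and 21 UMIs (28.6 and 34.4 CPM).

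The markers of the rule are given as a description. Xcr1 stood at 416 CPM (398 to 434) and 264 CPM (225 to 308), Clec9a at 191 (179 to 204) and 177 (145 to 214), and Flt3, the receptor for the growth factor of dendritic cells, at 161 (150 to 172) and 202 (168 to 241). Xcr1 was found in 90.9% and 89.3% of cells, shares that the rule largely sets. Among other transcription factors, Nfil3, which acts early in cDC1 development, stood at 62.7 and 177 CPM (ratio 2.82, 2.25 to 3.52), Klf4, known for its role in cDC2, at 194 and 379 CPM, and Etv3 at 207 and 377 CPM. Of 17 tested factors 4 were higher and 1, Irf8, lower, beside 13.9% and 5.53% of all genes. Of 6 tested genes of nucleic acid and pattern sensing 0 were higher and 1, Tlr3, was lower (median log2 ratio -0.18), beside the same shares. Genes of other dendritic states were mostly under the minimum. Of 24 genes of mature dendritic cells 4 were tested, with 2 higher and 0 lower. Of 16 cDC2 markers 3 were tested, with 1 higher and 0 lower. Both stand beside 13.9% higher and 5.53% lower of all genes.

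Antigen presentation genes differed little between the libraries. H2-Ab1 stood at 8228 CPM (8148 to 8308) and 9223 CPM (8984 to 9467), and Cd74, the invariant chain, at 21425 and 22180 CPM. The rule's own H2-Aa had 8554 and 10123 CPM, and its H2-Eb1 had 7571 and 8540 CPM. Of 10 tested class II genes 0 were higher and 1 lower (all genes 13.9% and 5.53%), Ciita, the class II master regulator, with 144 and 91.8 CPM. Ciita lay within 1.5-fold without cells with 2 or more T cell UMIs. Class I and cross-presentation genes held 2 higher and 1 lower of 21 tested, shares near the 13.9% and 5.53% of all genes: Canx, a folding chaperone (131 and 213 CPM), Lnpep, the endosomal peptidase IRAP (58.4 and 99.97 CPM), and Rac2, which controls the phagosomal oxidase (254 and 144 CPM). Psmb9, an immunoproteasome subunit, stood at 851 and 667 CPM. Of 10 tested genes of dead cell uptake and actin, 3 were lower, among them Havcr2, the TIM-3 receptor (151 and 81.9 CPM), and 1 higher, beside 5.53% and 13.9% of all genes.

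Costimulatory and inhibitory ligands were few above the minimum. Cd86 stood at 160 and 193 CPM, while Cd80 (20.5 and 39.3 CPM), Cd40 (25.4 and 22.9 CPM) and Cd274, the ligand PD-L1 (43.2 and 37.7 CPM), lay under it. Lgals9, a ligand of TIM-3, stood at 40.2 and 73.7 CPM, and its log2 ratio was 0.07 in place of 0.88 without cells with 2 or more T cell UMIs. Ccr7, which guides dendritic cells to lymph nodes, stood at 67.6 and 110 CPM (ratio 1.62, 1.23 to 2.12) and was found in 14.9% (10.64 to 19.995) and 42.9% (24.5 to 62.8) of cells, against 53.2% and 16.9% of T cells. Thinned to 2000 UMIs, Ccr7 was found in 6.198% and 10.7% of cDC1 cells and 33.9% and 10.8% of T cells. Without cells that held 2 or more T cell UMIs its log2 ratio was -0.18 in place of 0.70, and without any T cell UMI it was -0.63, while 11 of 156 untreated and 7 of 20 combination cells of the latter kind held Ccr7. The chemokine genes Ccl5 and Ccl3 stood at 103 and 177 CPM and at 40.8 and 105 CPM; 75.0% of the combination Ccl3 UMIs came from 1 cell, and Ccl5 had a log2 ratio of -0.10 without cells with 2 or more T cell UMIs. Of the receptors, Il4ra (43.2 and 102 CPM) and Ifnar2, a chain of the type I interferon receptor (71.8 and 133 CPM), were higher, with Ccr7 3 of 12 tested, beside 13.9% of all genes. Cxcl10 (43.4 and 45.9 CPM), Ifngr2 (77.7 and 72.1 CPM) and Irf1 (65.1 and 75.4 CPM) differed by less than 1.5-fold.

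ERK target genes, the readout nearest to MEK, were mostly too low to read in cDC1. Of 16 list members 4 were tested. Phlda1 stood at 165 and 44.2 CPM (3.73-fold lower, 2.54 to 5.69) and Ier3 at 63.5 and 141 CPM (ratio 2.22, 1.73 to 2.82). Dusp5, a nuclear ERK phosphatase, stood at 229 and 197 CPM and Ccnd1, cyclin D1, at 178 and 164 CPM. Dusp6, the cytoplasmic ERK phosphatase, had 64 UMIs untreated (13.0 CPM) and 0 in the combination library, where 3 UMIs would be 4.92 CPM. In T cells Phlda1 went the other way, with 60.7 and 171 CPM.

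Glycolytic genes were lower in the combination library, with 7 of 10 tested lower and 0 higher, beside 5.53% and 13.9% of all genes, and a median log2 ratio of -0.71. Tpi1, triose phosphate isomerase, stood at 254 and 85.2 CPM (2.98-fold lower, 2.26 to 4.01), Pgk1, phosphoglycerate kinase, at 380 and 149 CPM and Gapdh at 1543 and 839 CPM. Pfkp and Pgam1 lay within 1.5-fold (382 and 329, 327 and 285 CPM). In T cells Tpi1 stood at 350 and 142 CPM. Of 16 oxidative phosphorylation genes, 0 were past the limit in either direction, with Atp5b at 549 and 452 CPM. Ctsc, the lysosomal protease cathepsin C, stood at 124 and 298 CPM. Of 12 tested lysosomal genes it was the only higher one and 1 was lower, beside 13.9% and 5.53% of all genes. The survival genes Bcl2a1a and Bcl2a1b, near-identical copies, stood at 244 and 152 CPM and at 531 and 349 CPM, and Bcl2l11, the death inducer BIM, at 36.1 and 80.3 CPM. Pcna, the sliding clamp of DNA replication, stood at 66.8 and 141 CPM, whereas Rrm2, a subunit of ribonucleotide reductase, stood at 62.5 and 37.7 CPM and past the limit in 8 of 11 alternatives.

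**Figure D5:**
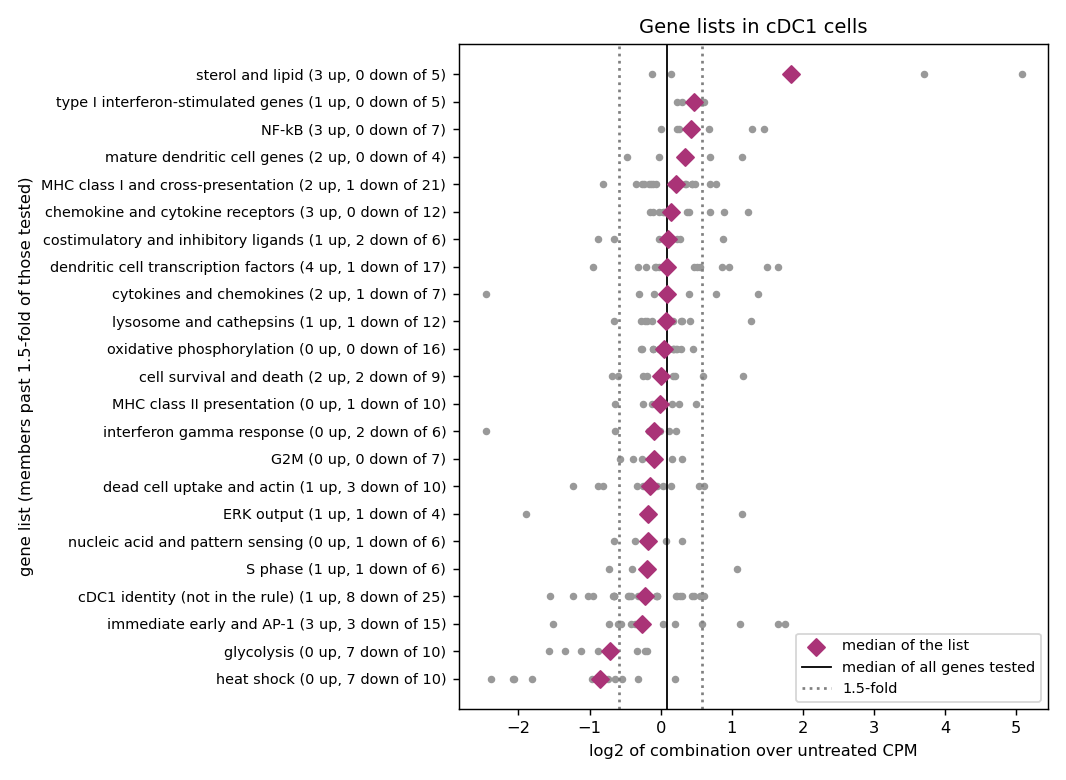
Log2 ratio of combination over untreated CPM in cDC1 cells for the tested members (grey points) and the median (diamonds) of each gene list with at least 4 tested members; the black line is the median of all tested genes (0.10) and dotted lines mark 1.5-fold. Of the tested members, 7 of 10 are lower in heat shock, 7 of 10 in glycolysis and 8 of 25 in cDC1 identity, beside 5.53% of all genes. The sterol and lipid list rests on 5 genes.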

How the data were processed

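The 2 libraries (untreated, 9312 cells; combination, 8078 cells) were made with a droplet kit for 3' ends. The submitters' processing notes name Cell Ranger and Seurat without versions and the build GRCh38, although the gene symbols are those of mouse. The deposited table holds natural log values, which per the values in the deposited file are the log of 1 plus UMIs scaled to 10000 per cell. Back-transformation gave whole UMIs for all 38204229 nonzero values (tolerance 0.01), with each cell summing to 10000, so UMIs were summed per class and library. This step replaced any use of the log scale in the ratios. Cells were assigned to libraries by the barcode suffix, which matches the sample number in the labels and its cell number.

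With 1 library per group, ratios of CPM were given with exact 95% intervals for 2 Poisson counts, and shares with Clopper-Pearson intervals. Droplets without further replicates make these cover counting error only. Genes were compared with at least 30 UMIs over both libraries and a mean of at least 50 CPM, at 1.5-fold. Genes with no UMI in a whole library counted as not measured there, which left 13998 of 15121 genes. No doublet caller was run, and cells with T cell UMIs were left out as an alternative. Cells were thinned to 2000 UMIs to compare shares across depths.

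The members, the 34 gene lists and the tests were chosen with earlier results of these data known. Named genes were the 12 highest and 12 lowest by the interval bound nearest to 1, the 2 highest and lowest of each list, a fixed set of cDC1 and pathway genes, and 10 in each direction per comparison of classes. Genes outside that rule, such as those of the promoter search, were chosen after their values were seen. Scripts ran in Python 3.11.15 with pandas 2.3.3, scipy 1.17.1, matplotlib 3.10.9 and numpy 2.4.6. The ratio step was run on simulated Poisson counts with 200 changed genes. Those counts held no variation between cells, so the run cannot show how the intervals behave where 1 cell gives most UMIs. Promoters came from a RefSeq table of GRCm38.p6, which matched 9 of 12 heat shock genes. Alternatives changed the cells, the scaling, the minimum and the rule, and those on plasmacytoid-marker cells, C1qa and single cells were chosen after seeing the data. A few members of the gene lists are not reported here by name.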

Additional observations from a re-analysis of the deposited data

Results flagged for a closer look

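In 8 of the genes named here the log2 ratio of combination to untreated CPM had opposite signs in cDC1 and in T cells of the same libraries, both past 1.5-fold. How many of all 2624 tested genes did so is not given, so 8 is no total. The difference between the cell types was not tested, since each rests on 1 library per group. Lower in combination cDC1 and higher in combination T cells were Hsph1 (-2.07 against 1.14), Phlda1 (-1.90 against 1.496), Irf8 (-0.95 against 0.76) and Havcr2 (-0.88 against 0.70). Higher in combination cDC1 and lower in combination T cells were Ccl3 (1.36 against -1.53), Ier3 (1.15 against -0.70), Lyz2 (0.87 against -2.26) and Ccr7 (0.70 against -1.53). Of these, Ccl3, Lyz2 and Ccr7 in cDC1 each took the other sign under at least 1 alternative.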

How the results depend on the processing

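No paired analysis was possible because each group is 1 library, so no library could be left out either. The main counts were 366 genes higher and 145 lower. Without cells above the 95th percentile of UMIs, which leaves 224 untreated and 9 combination cells, they were 637 and 336. With the total taken without ribosomal and mitochondrial genes 403 genes were higher and 232 lower. A minimum of only 10 UMIs gave 2062 and 1859, a mean of 200 CPM gave 50 and 31, and 2-fold gave 104 and 42. The untreated share of 2.60% became 21.5% of cells without T cell UMIs, 16.7% of class II cells, 2.12% with both Xcr1 and Clec9a, 2.15% without cells with 2 or more T cell UMIs, 0.837% after thinning and 3.14% with C1qa not used. The combination share of 0.347% became 3.23%, 5.22% and, after thinning, 0.146% in the same order of settings. All shares were lower in the combination library under these settings. Of 1993 gene ratios over all alternatives 263 moved beyond the interval or across the 1.5-fold limit. Another 13, all of genes past 1.5-fold in the main run, took the other sign. Genes within 1.5-fold also changed sign and are not in that count. Cxcl10, for example, kept its sign in 6 of 13 alternatives and Cd74 in 8 of 13. Ccr7 stood at -0.18, -0.63 and -0.16 on the log2 scale without cells with 2 or more T cell UMIs, without any, and without the former and plasmacytoid-marker cells. Ccl5 stood at -0.10, -0.25 and -0.27 in these. Without cells above the 95th percentile Ccl5 stood at -0.50, Plac8 at 0.60, Lgals9 at -0.67 and Ccl3 at -2.32. Lyz2 stood at -0.13 with C1qa not used. Without the cell with most UMIs Klk1 stood at -0.88 and Ccl3 at -0.16. The median of the sterol and lipid list was -0.12 with no minimum beyond 10 UMIs. The cause was not tested.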

Other observations

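Some genes outside the lists' headings stood apart in cDC1. The type I interferon list had 1 of 5 tested members higher (Ifi205) and 0 lower, beside 13.9% and 5.53% of all genes. Its median log2 ratio was 0.47, and Ifi205 stayed past 1.5-fold in 5 of 13 alternatives. The interferon gamma list had 0 of 6 higher and 2 lower (Cxcl9 and Ciita), beside the same shares, with a median of -0.09. Of the 16 genes most raised in treated T cells in earlier results of these data, 7 were tested in cDC1 and 5 were higher (median 1.47), beside 13.9% of all genes. Of the 15 most lowered there, 3 were tested and 1 was lower, beside 5.53% of all genes. Those lists come from the same 2 libraries and are no independent evidence. Hemoglobin genes summed to 284 CPM in untreated and 2.11 CPM in combination T cells, and to 3.04 and 1.64 CPM in cDC1.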
